A study of Homo sapiens with 6 samples.

Results

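The cytosolic ribosomal proteins are the proteins of the ribosome that translates nuclear-encoded mRNA. They were taken by symbol: RPL or RPS with a number, RPLP0, RPLP1, RPLP2 and RPSA, with the suffix A, X or L allowed and S6 kinases, pseudogenes and antisense genes left out. Of the 81 protein-coding genes in RefSeq whose symbols fit, 56 were measured by probe sets that carry a single gene symbol, among 19775 genes measured that way. These 56 comprise 35 genes of the large subunit and 21 of the small subunit, and 117 probe sets read them. The other 25 genes, RPLP0, RPL5, RPL10, RPS2, RPS26 and RPSA among them, have no gene value here. For 15 of those the symbol occurs only on probe sets that list several symbols, and for 10 it is not in the platform annotation used here, so they were not analysed here.

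The cells were MCF10A, an immortalised but non-tumorigenic epithelial line from human breast. They were seeded at 50K, 100K, 200K, 400K, 600K or 800K cells in dishes of 35 mm, and RNA was isolated 24 h later. All densities shared 1 medium, DMEM/F12 with horse serum, EGF, hydrocortisone, cholera toxin, insulin and gentamicin. Growth factor and insulin were thus supplied at every density, and how much of them remained at harvest is not given. Each density was read on 1 Affymetrix HG-U133 Plus 2 array, called by its density (100K and so on) in what follows.

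Each ribosomal protein has its own gene, and the subunits take up their proteins in fixed proportions: the small subunit decodes the mRNA and the large subunit forms the peptide bonds. Most of these mRNAs begin with a pyrimidine tract at the 5′ end, the TOP motif, through which mTORC1 and the RNA-binding protein LARP1 control their translation when growth factors or amino acids change. That control acts on translation and need not alter the amount of mRNA, which is what the arrays read.

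The deposited values are ratios to the 50K array, so 50K is 0 on the log2 scale and the values give changes, not levels. A change common to all genes cannot be seen in them, because the arrays were normalized to each other. There are no replicates: a slope is the change in log2 ratio per doubling of the cells plated, ± is its standard error, which reflects how far the 6 arrays lie from a line, and a gene was called when its limma adjusted p was under 0.05. The median log2 ratio over all genes lay between 0.017 and 0.050 on the 5 arrays above 50K. Of the epithelial markers, 3 of 5 measured rose. Of fibroblast, endothelial, leukocyte and adipocyte markers, 1 of 5, 1 of 3, 0 of 2 and 0 of 3 rose. Falling calls numbered 0 in every marker list. Over all genes 8.93% rose and 12.4% fell. Whether a marker was present or absent cannot be read from ratios.

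The TOP tract was looked for at the start sites of the ribosomal protein genes, and some genes described further on carry it there. Others do not, and RPL37, RPL39L and RPS15A were not in the promoter table. The RefSeq promoter windows (assembly GRCh38.p14, 300 bases each) were searched for a C at the listed start followed by at least 4 letters that are each C or T, on the strand of the gene only. Printed are the 20 bases before the start and the 20 from the start on, 5′ to 3′ on the gene's strand, with the tract in capitals. RPS27 and its paralog RPS27L come first, because the one carries a tract and the other does not. RPL39 and RPL31 stand for the proteins at the exit tunnel, and the others are genes that rose with density.
RPS27 (chr1:153990742-153990781, plus strand): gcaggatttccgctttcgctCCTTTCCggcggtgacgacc
RPS27L (chr15:63157458-63157497, minus strand): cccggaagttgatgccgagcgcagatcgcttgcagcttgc
RPL39 (chrX:119791611-119791650, minus strand): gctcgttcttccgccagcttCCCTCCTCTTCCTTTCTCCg
RPL31 (chr2:101002269-101002308, plus strand): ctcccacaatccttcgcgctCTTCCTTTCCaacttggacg
RPL22 (chr1:6199576-6199615, minus strand): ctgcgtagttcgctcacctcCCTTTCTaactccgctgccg
RPL29 (chr3:51995876-51995915, minus strand): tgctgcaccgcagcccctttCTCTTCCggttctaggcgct
RPL36 (chr19:5690275-5690314, plus strand): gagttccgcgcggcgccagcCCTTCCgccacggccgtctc
RPL3 (chr22:39319604-39319643, minus strand): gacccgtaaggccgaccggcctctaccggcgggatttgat
RPS28 (chr19:8321476-8321515, plus strand): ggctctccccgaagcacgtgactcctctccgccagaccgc

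RPS28 has a run of 9 such letters that begins 1 base after the listed start, and RPL3 has a run of 4 at its start, so neither met the rule. The tract stood at a listed start in 46 of the 79 windows of ribosomal protein genes (58.2%) and in 4.07% of all 35116 windows. Counted by gene over any of its windows, it was found in 46 of 64 ribosomal protein genes (71.9%) and in 5.14% of 27305 genes. With a run that may begin up to 5 bases from the start, it was 53 of 64 (82.8%) against 25.2%. A match of letters is not evidence of translation control, and a missing match says only that these letters are not at the listed start.

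Across the 16-fold range of density the array ratios of most ribosomal protein genes moved little, and most slopes were above 0. Their median slope was 0.028 log2 units per doubling, against 0.0045 for all genes, with quartiles of 0.013 and 0.051. Slopes above 0 were found for 48 of the 56 genes (85.7%) and for 58.5% of all genes. On the 100K array the median log2 ratio of the 56 was 0.047, and on the 200K array it was 0.051. It was 0.088 on 400K, 0.13 on 600K and 0.097 on 800K, which is 1.07-fold above 50K on the last array. The highest array was 600K for 26 of the 56 genes and 800K for 12, and the lowest array was 50K for 32. At 800K, 47 genes lay above their 50K value and 8 below. All these ratios share the 50K array, and the median of all genes was also highest on 600K (0.050). The same counts were not made over all genes.

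In limma's fit 8 of the 56 genes rose with density (14.3%), against 8.93% of all genes tested. Falling calls numbered 1 of 56 (1.79%), against 12.4% of all genes. The remaining 47 did not pass. The large subunit held 5 rising genes and 1 falling gene of 35, with a median slope of 0.027, and the small subunit held 3 rising and 0 falling of 21, with a median slope of 0.036. A change of 2-fold or more from 50K on any array was seen for 0 of the 56 genes and for 5.59% of all genes. The 95% interval of the slope lay within a 2-fold change over the whole range for 55 of the 56 (98.2%), RPS29 being the exception, and for 87.8% of all genes. Neither count bears on a shift common to all genes, which normalization removes. Whether signals were saturated is unknown, so small ratios show small changes in signal and not necessarily in mRNA.

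**Figure D1:**
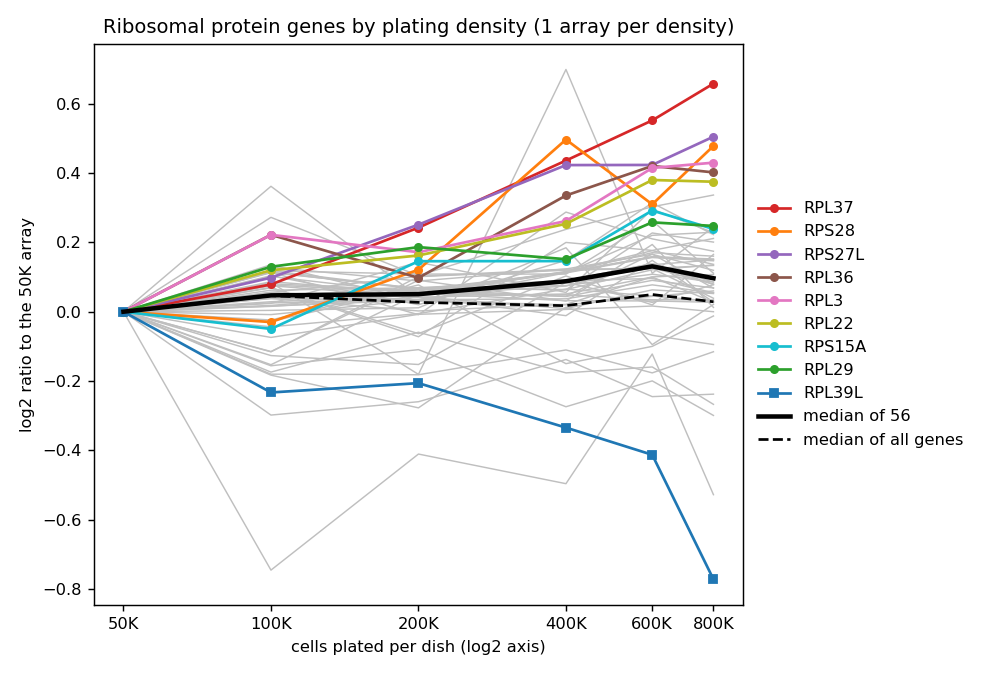
Log2 ratio to the 50K array (vertical) of the 56 genes against cells plated per dish (log2 axis), 1 array per density: coloured lines with points are the 9 called genes, grey lines the other 47, the thick black line their joint median and the dashed line the median of all genes. The median of the 56 climbs to 0.13 at 600K, RPL37 ends highest at 0.66 and RPL39L lowest at −0.77.

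**Figure D2:**
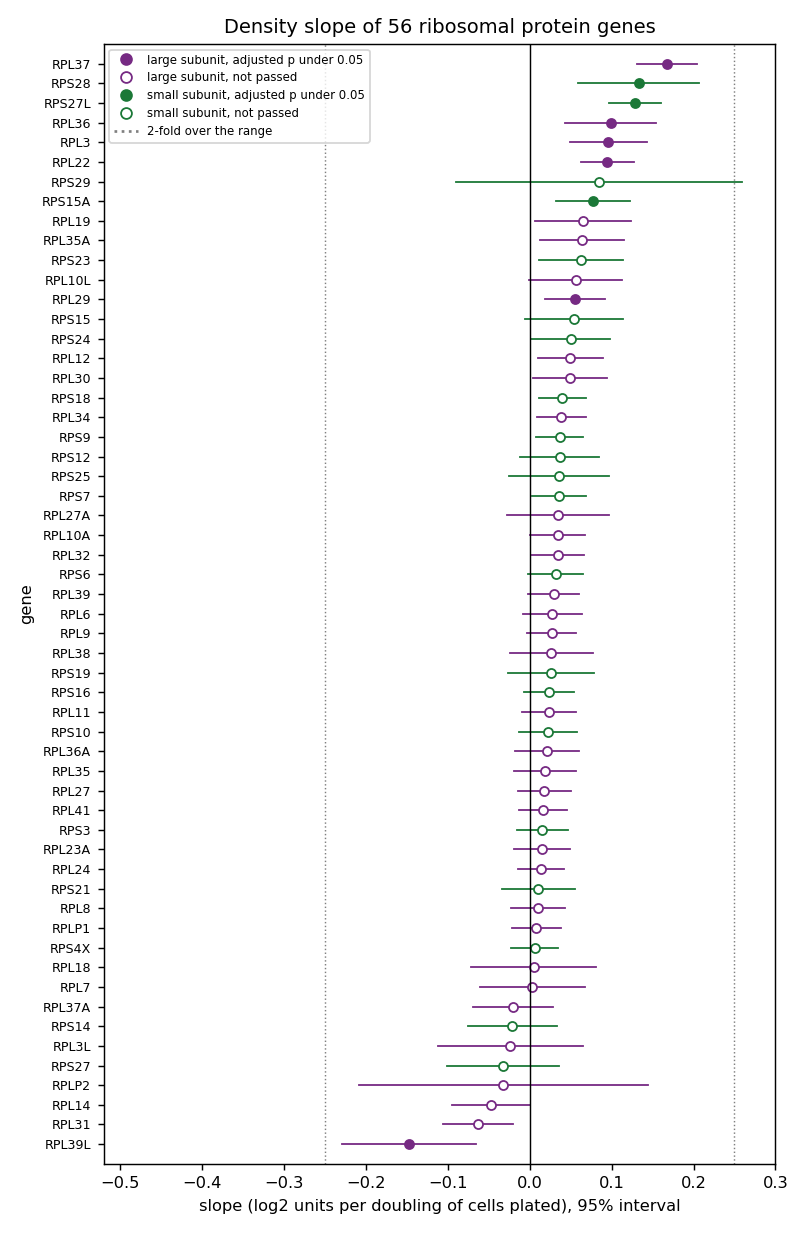
Slope of each of the 56 genes in log2 units per doubling of cells plated, with its 95% interval from limma; filled points passed the adjusted threshold, purple is the large and green the small subunit, and dotted lines mark a 2-fold change over the range. Apart from RPS29, whose interval crosses the dotted line, all intervals lie inside these lines.

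RPL37, a zinc-binding protein of the large subunit, had the steepest slope. Its log2 ratio was 0.079 on 100K, 0.24 on 200K, 0.44 on 400K, 0.55 on 600K and 0.66 on 800K. Every step up in density brought a higher value, and the 800K array stood 1.58-fold above 50K. The slope was 0.17 ± 0.015 (limma adjusted p = 0.00206), and the call held with each array left out. Its 4 probe sets differed in size: their slopes were 0.031, 0.091, 0.23 and 0.32.

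RPS27L, a paralog of RPS27 known as a target of p53, rose as well. Its log2 ratio was 0.098 on 100K, 0.25 on 200K, 0.42 on both 400K and 600K and 0.51 on 800K. The 3 dense arrays were all above the 3 sparse ones. The slope was 0.13 ± 0.013 (limma adjusted p = 0.00285), again with each array left out in turn. Of its 3 probe sets, those with slopes of 0.15 and 0.20 passed when each probe set was fitted alone (adjusted p = 0.0121 and 0.00586), and the third had a slope of 0.037 (adjusted p = 0.514).

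RPL22, an RNA-binding protein of the large subunit near the exit tunnel, was the third gene called with each array left out. Its log2 ratio was 0.12 on 100K, 0.16 on 200K, 0.25 on 400K and 0.38 on both 600K and 800K. The slope was 0.095 ± 0.013 (limma adjusted p = 0.006675). That value averages 5 unlike probe sets. One rose to 1.04 log2 units at 800K with a slope of 0.26, another had a slope of 0.17, and the 3 whose identifiers end in _x_at, a mark of possible cross-hybridisation, had slopes of 0.015, 0.013 and 0.019. With the median of the probe sets in place of the mean, the slope was 0.017 and the call ended (adjusted p = 0.555).

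The other 5 rising genes lost their calls in some or all fits with 1 array left out, while their slopes stayed above 0 there. Calls over all genes also went down in those fits, from 4220 to between 2388 and 3909. The leave-one-out slopes were 0.12 to 0.17 for RPS28, 0.088 to 0.11 for RPL36, 0.081 to 0.11 for RPL3, 0.065 to 0.098 for RPS15A and 0.038 to 0.061 for RPL29. RPS28, which lies where the mRNA leaves the small subunit, was at −0.030 on 100K, 0.12 on 200K, 0.50 on 400K, 0.31 on 600K and 0.48 on 800K. The 3 dense arrays were high and the 100K array was level with 50K. Its slope was 0.13 ± 0.030 (limma adjusted p = 0.0272). The call ended without the 50K (adjusted p = 0.0637), 100K (0.0785) or 800K array (0.101). It also ended with the median of the gene's probe sets (0.0793) and with the arrays centred on their medians (0.0570). The 3 probe sets of RPS28 had slopes of 0.17, 0.19 and 0.033. Fitted alone, the second passed (limma adjusted p = 0.00585) and the others did not (0.216 and 0.1425). The first stood at 0.88 on 400K and 0.19 on 600K.

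RPL3, which reaches towards the peptidyl transferase centre, was at 0.22 on 100K, 0.17 on 200K, 0.26 on 400K, 0.41 on 600K and 0.43 on 800K. Its slope was 0.096 ± 0.019 (limma adjusted p = 0.0184), from 1 probe set, which ends in _x_at. It did not pass without the 50K (adjusted p = 0.127), 600K (0.0648) or 800K array (0.0774). RPL36, another protein of the large subunit, was at 0.22 on 100K, 0.098 on 200K, 0.34 on 400K, 0.42 on 600K and 0.40 on 800K. As for RPL3, the 50K array was the lowest and the 2 densest were the highest. Its slope was 0.099 ± 0.0225 (limma adjusted p = 0.0281), and the adjusted p was 0.170 without 50K, 0.0581 without 400K, 0.0896 without 600K and 0.0890 without 800K.

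RPS15A, a small-subunit protein, was at −0.050 on 100K, 0.15 on both 200K and 400K, 0.29 on 600K and 0.24 on 800K. Its slope was 0.077 ± 0.018 (limma adjusted p = 0.0327), and no leave-one-out fit called it (adjusted p from 0.0520 without 200K to 0.0958 without 600K). Its probe sets ran in both directions, with slopes of −0.070, 0.022 and 0.28, so that their median gave a slope of 0.022 (adjusted p = 0.365). Centring the arrays also ended the call (0.0522). RPL29, a large-subunit protein that also binds heparin, was at 0.13 on 100K, 0.19 on 200K, 0.15 on 400K, 0.26 on 600K and 0.25 on 800K. Its slope was 0.055 ± 0.015 (limma adjusted p = 0.0485), just inside the threshold, and the adjusted p lay between 0.0577 (without 400K) and 0.285 (without 50K) with 1 array left out. It was also lost on cell number (0.108), on rank (0.0517) and with robust variances (0.0511), and both of its probe sets end in _x_at.

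RPL39L, a paralog of RPL39 known for its expression in testis, was the gene that fell. Its log2 ratio was −0.23 on 100K, −0.21 on 200K, −0.33 on 400K, −0.41 on 600K and −0.77 on 800K. The 800K array lay well apart, at 0.586 of the 50K value. The slope was −0.15 ± 0.034 (limma adjusted p = 0.0280), from 1 probe set. The call ended without the 50K (adjusted p = 0.137) or 100K array (0.0564), and the slope stayed between −0.16 and −0.10 with 1 array left out.

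Setting the 3 highest against the 3 lowest densities in place of a slope ended the calls of RPL22 (limma adjusted p = 0.0581), RPL3 (0.106), RPS15A (0.124), RPL29 (0.319) and RPL39L (0.135). RPL37, RPS27L, RPS28 and RPL36 were called in that fit too.

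RPL31, at the exit tunnel, came next among the negative slopes. It was at −0.16 on 100K, −0.11 on 200K, −0.27 on 400K, −0.20 on 600K and −0.30 on 800K, with a slope of −0.063 ± 0.0175 (limma adjusted p = 0.0532). All arrays lay below 50K, and the gene did not pass. It was called without its _x_at probe set (slope −0.10, adjusted p = 0.0314) and with the arrays centred on their medians (slope −0.068, adjusted p = 0.0468). RPL31 was not called without probe sets ending in _x_at or _s_at (slope −0.125, limma adjusted p = 0.185) or with the median of its probe sets (0.139). Nor did it pass on cell number (0.0947), in the 3 against 3 fit (0.107) or with any array left out (0.0555 to 0.293). RPL14, of the large subunit, had a slope of −0.047 ± 0.019 (limma adjusted p = 0.156).

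Curvature, tested as a quadratic term in limma, passed for 0 of the 56 genes and 0.0% of all genes. At an unadjusted p under 0.05 it was 0 of the 56 and 2496 of all genes (12.6%). The terms nearest the threshold among the 56 were those of RPL37 (0.084 ± 0.044, limma adjusted p = 0.528) and RPL37A (0.11 ± 0.058, adjusted p = 0.543). With 6 arrays and 3 residual degrees of freedom, these terms did not exceed the scatter.

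Several probe sets of a gene often disagreed. Of the 56 genes, 22 had 1 probe set and 34 had up to 5, and among those 34 the slopes had a single sign in 23 and both signs in 11. The 35 probe sets ending in _x_at were tightly grouped, all with slopes between 0.0038 and 0.096. The 38 ending in _s_at, which can match several transcripts, ran from −0.11 to 0.17 with 35 above 0. The 44 others, specific by design, ran from −0.17 to 0.32 with 31 above 0 and had a median of 0.020, close to that of _s_at (0.028) and _x_at (0.030). Both ends of the range were held by the specific ones, and a gene's mean blends the kinds.

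RPL37A is an example of the split. One probe set fell at every step, to −0.65 at 800K (slope −0.14, limma adjusted p = 0.0105 when fitted alone), while the others had slopes of 0.020 and 0.065. The gene mean of RPL37A, a zinc-binding protein of the large subunit, was −0.18 on 100K, −0.18 on 200K, −0.11 on 400K, −0.18 on 600K and −0.12 on 800K, with a slope of −0.020 ± 0.020 (limma adjusted p = 0.608). Without its _x_at probe set it was called falling (slope −0.062, adjusted p = 0.0230). RPS29, a zinc-binding protein of the small subunit, had the widest range of the 56, 0.88 log2 units, and in it 1 probe set stood at 1.30 on the 400K array while the other stayed between 0 and 0.15. At the other extreme RPS4X, the X-linked small-subunit protein, ranged over 0.053, read by 2 probe sets that both end in _x_at.

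**Figure D3:**
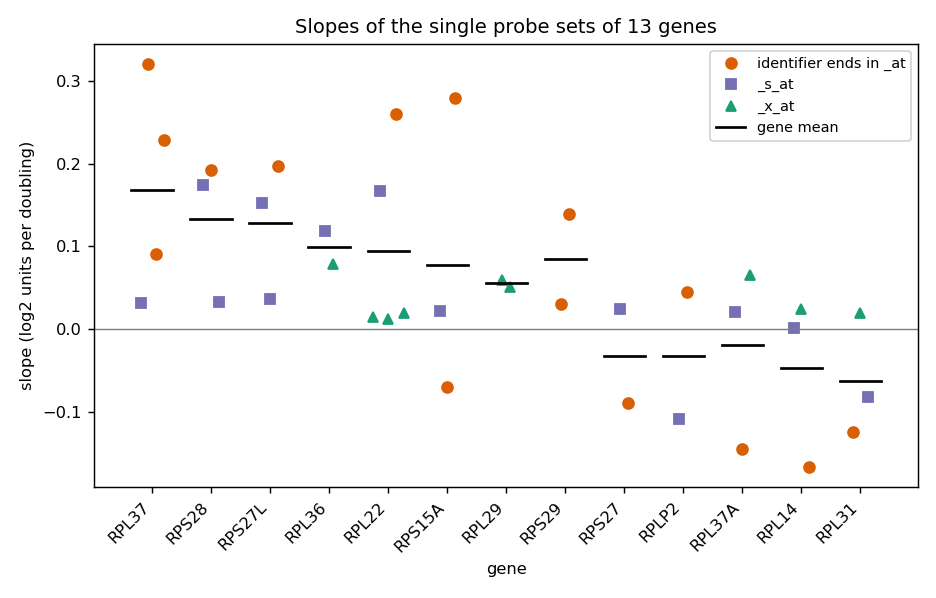
Slopes of the single probe sets (points, in log2 units per doubling) of 13 genes, with the black bar at the gene mean; shape and colour give the ending of the probe set's identifier. Points of 1 gene spread widely, as in RPL22 (0.013 to 0.26), RPL37 (0.031 to 0.32) and RPS15A (−0.070 to 0.28).

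The probe sets left out because they list several symbols were read as a check, added after the data were examined. In 49 of them, covering 17 member symbols, the other symbols were small RNAs such as snoRNAs encoded in introns. Their median slope was 0.018, with 42 above 0 and 7 below, and the range was −0.36 to 0.28.

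At each position in the ribosome that was listed, at most 1 measured gene was called. Over all genes 8.93% rose and 12.4% fell. At the stalk, which recruits elongation factors, 2 of 3 proteins were measured and 0 passed. RPLP1 was between 0.020 and 0.060 on all arrays above 50K (slope 0.0081 ± 0.012), whereas RPLP2 was at −0.75 on 100K, −0.41 on 200K, −0.50 on 400K, −0.12 on 600K and −0.53 on 800K. All these RPLP2 values lie below 50K without an order by density, and its slope was −0.032 ± 0.072. They are means of 2 probe sets that disagree. The one ending in _s_at was at 0.15 on 200K and −0.42 on 600K (slope −0.11). The other was at −0.98 on 200K and 0.17 on 600K (slope 0.045). On 100K, 400K and 800K both lay below 50K. RPL11, which joins RPL5 and 5S RNA in a particle that can bind MDM2, had a slope of 0.024 ± 0.014, and RPL5 was not analysed here.

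Of the 9 proteins listed at the exit tunnel 6 were measured. RPL22 was called rising (16.7%, against 8.93% of all genes) and 0 fell (12.4% of all genes). The median slope of the 6 was 0.024, with RPL31 lowest. Where the mRNA enters the small subunit, RPS3 had a slope of 0.016 ± 0.013 and RPS9 0.037 ± 0.012 (limma adjusted p = 0.0809 for RPS9). Where it exits, RPS28 rose and RPS14 had a slope of −0.021 ± 0.022. RPS6, the substrate of the S6 kinases, was between 0.065 and 0.16 on the arrays above 50K (slope 0.032 ± 0.014, limma adjusted p = 0.176). Among genes mutated in Diamond-Blackfan anaemia, an inherited failure of red cell production, 14 of 20 were measured. RPS28 and RPS15A rose (14.3%, against 8.93% of all genes), 0 fell (12.4% of all genes), and the median slope of 0.025 was near the 0.028 of all 56.

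Split by the tract described above, 34 measured genes that carry it had a median slope of 0.025, with RPL22, RPL29 and RPL36 rising. The 14 measured genes without it had a median slope of 0.045, with RPL3, RPS27L and RPS28 rising, and 0 fell on either side. The rising shares were 8.82% with the tract and 21.4% without. Of those without, RPL3 has a run of 5 letters that begins 1 base before the listed start. RPS28 has a run of 9 that begins 1 base after it. With a run allowed to begin up to 5 bases away, 40 of the 48 measured genes carry it. Slopes were not split by that wider rule. Among all measured genes the median was 0.010 for the 934 with the tract and 0.0039 for the 14450 without, with 14.6% and 8.95% rising and 9.64% and 13.5% falling. The remaining 8 of the 56, RPL37 and RPL39L among them, were not in the promoter table.

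Some ribosomal proteins have a paralog, which in some cases takes their place in particular tissues. Of 4 such pairs among the members, 3 could be compared, since RPL10, the partner of RPL10L, was not analysed here. RPL10L itself had a slope of 0.056 ± 0.023 (limma adjusted p = 0.159). The comparison was added after the values were seen. It took the slope of the difference in log2 ratio between the 2 genes of a pair on the same arrays. The test was a two-sided exact permutation over all 720 orders of the cell numbers, adjusted over the 3 pairs. Each pair held a gene already called on these arrays, RPS27L and RPL3 rising and RPL39L falling. A slope in the difference was therefore likely beforehand, and adjusting over the 3 pairs does not correct for that. The exact p-values describe the differences and are not evidence separate from those calls.

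RPS27L gained on RPS27, a zinc-finger protein of the small subunit. RPS27 was at −0.30 on 100K, −0.26 on 200K, −0.14 on 400K and −0.24 on both 600K and 800K, all below 50K without an order by density. These means come from 2 probe sets that disagree: the one ending in _s_at lay between 0 and 0.098 on the arrays above 50K (slope 0.0245), and the other between −0.61 and −0.33 (slope −0.089), so the values below 50K are those of the latter. The difference was 0.40 at 100K and 0.74 at 800K, with a slope of 0.16 ± 0.027 (exact permutation p = 0.0014, adjusted 0.0042). With probe sets ending in _s_at only it was 0.070 (exact permutation p = 0.0111), and without the 600K array the adjusted exact p was 0.05.

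RPL39L lost ground against RPL39. RPL39, a small protein in the wall of the exit tunnel, was at 0.016 on 100K, 0.033 on 200K, 0.090 on 400K, 0.14 on 600K and 0.079 on 800K, so it stayed slightly above 50K while RPL39L lay below on every array. The slope of the difference was −0.18 ± 0.034 (exact permutation p = 0.0056, adjusted 0.0083). Without the 50K or the 600K array the adjusted exact p was 0.05.

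RPL3L, the paralog of RPL3 found in striated muscle, was at 0.36 at 100K and between 0.0092 and 0.063 on the other arrays above 50K, with a slope of −0.024 ± 0.036. The slope of RPL3L minus RPL3 was −0.12 ± 0.027 (exact permutation p = 0.0194, adjusted 0.0194), in which RPL3 rose and RPL3L did not pass. The adjusted exact p was 0.0583 without 200K, 0.0750 without 400K and 0.0833 without 600K or 800K.

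**Figure D4:**
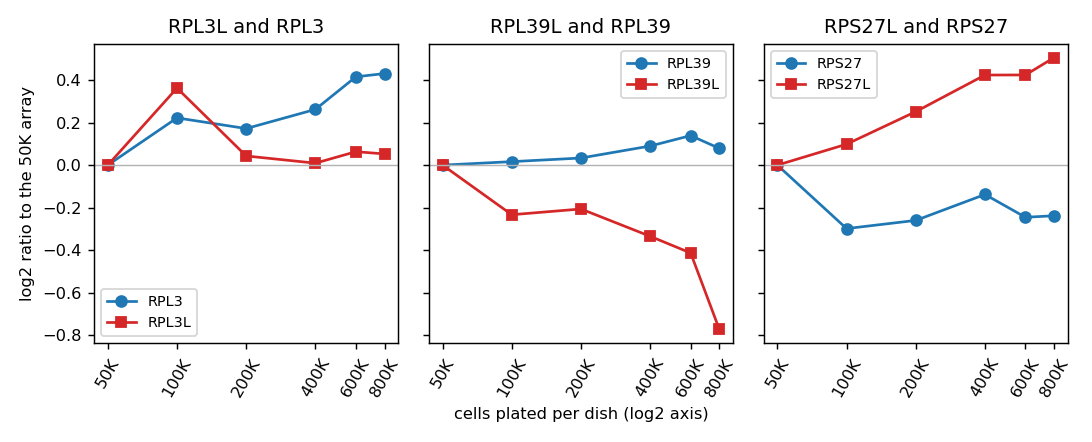
Log2 ratio to the 50K array against cells plated per dish (log2 axis) for 3 pairs, 1 panel each, with the paralog in red squares and its partner in blue circles, 1 array per point. RPS27L climbs to 0.51 above an RPS27 below 0, RPL39L drops to −0.77 below a nearly level RPL39, and RPL3L is high at 100K alone.

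Of the paralogs whose symbols fall outside the rule, RPL7L1, related to RPL7 and acting in ribosome assembly, fell: it was at −0.050 on 100K, −0.17 on 200K, −0.34 on 400K, −0.54 on 600K and −0.65 on 800K, lower with every step (slope −0.16 ± 0.022, limma adjusted p = 0.00569). RPL26L1 (slope −0.074), RPL22L1 (0.0058) and RPL36AL (0.024) did not pass. FAU, which encodes RPS30 fused to a ubiquitin-like protein, had a slope of 0.0010.

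Several genes that handle newly made ribosomal proteins fell. Of 6 chaperones and escorts of new ribosomal proteins, 4 fell (66.7%, against 12.4% of all genes) and 0 rose (8.93% of all genes), with a median slope of −0.21. BCCIP, the chaperone of RPL23, was at 0.017 on 100K, −0.23 on 200K, −0.72 on 400K, −0.95 on 600K and −1.25 on 800K (slope −0.32 ± 0.044, limma adjusted p = 0.00615). TSR2, which escorts RPS26, was at −0.12, −0.32, −0.48, −0.92 and −1.20 on the same arrays (slope −0.28 ± 0.044, limma adjusted p = 0.00891). GRWD1, the chaperone of RPL3, had a slope of −0.22 ± 0.023, and HEATR3, which imports RPL5 and RPL11 into the nucleus, had −0.20 ± 0.030 (limma adjusted p = 0.00293 and 0.00852). The call of HEATR3 ended without the 50K array (0.0584), and those of TSR2 (0.0645) and HEATR3 (0.0778) when the 3 highest densities were set against the 3 lowest. GRWD1 fell while its client RPL3 rose, and the difference between them was not tested.

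The mitochondrial ribosomal proteins, encoded in the nucleus for the separate ribosome of mitochondria, had a median slope of −0.048. Of 75 measured, 18 fell (24.0%) and 3 rose, against 12.4% and 8.93% of all genes. The steepest falls were those of MRPL49 (slope −0.21 ± 0.043, limma adjusted p = 0.0204), MRPL17 (−0.21 ± 0.038, 0.0142) and MRPL21 (−0.17 ± 0.0395, 0.02835), and all 3 lost their calls without the 600K array (adjusted p = 0.0696, 0.0502 and 0.0639) or the 800K array (0.0759, 0.0539 and 0.0982). MRPL49 and MRPL21 also lost theirs without 100K (0.0695 and 0.0790), and MRPL21 without 400K (0.0573).

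Of the initiation factors outside eIF3, 9 of 20 fell (45%, against 12.4% of all genes), with a median slope of −0.065. The 2 that rose (10.0%) are near the 8.93% of all genes. EIF5, the GTPase-activating factor of start codon recognition, had a slope of −0.25 ± 0.033 (limma adjusted p = 0.00596), and EIF6, which keeps free large subunits from joining, had −0.20 ± 0.026 (0.00557). EIF4G1, the scaffold of the cap complex, had −0.22 ± 0.042 (0.0168), a call that ended without the 100K (0.0600), 600K (0.0590) or 800K array (0.0519). EIF4B, the partner of the helicase eIF4A, rose from 0.093 at 100K to 0.64 at 800K (slope 0.17 ± 0.018, limma adjusted p = 0.00334). EIF2S3, a subunit of eIF2, rose with a slope of 0.068 ± 0.014 (0.0204), lost without the 100K (0.0503), 600K (0.0686) or 800K array (0.0954). With the 3 highest against the 3 lowest densities EIF4G1 did not pass (0.0539).

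Of the 13 subunits of eIF3, the complex that holds the small subunit ready for initiation, 3 rose (23.1%, against 8.93% of all genes) and 2 fell (15.4%, near the 12.4% of all genes). EIF3K (slope 0.096 ± 0.023, limma adjusted p = 0.0332), EIF3H (0.092 ± 0.016, 0.0119) and EIF3E rose, and EIF3J (−0.092 ± 0.014, 0.00886) and EIF3G fell. Without the 50K array EIF3K (0.204) and EIF3H (0.0564) did not pass, and without the 800K array they did not either (0.0753 and 0.0576). EIF3K also did not pass without 200K (0.0569), 400K (0.0626) or 600K (0.101), on cell number (0.111), in the 3 against 3 fit (0.189) or with the median of its probe sets (slope 0.031, 0.474). EIF3E was called with all arrays (slope 0.091 ± 0.023, limma adjusted p = 0.0408) and without 50K, but not without any other array (0.0576 to 0.129), after centring (0.0789) or without _x_at and _s_at probe sets (0.0938). EIF3G (slope −0.078 ± 0.0165, 0.0219) was lost without 100K (0.0602), 600K (0.0728) or 800K (0.0786), and EIF3J in the 3 against 3 fit (0.0541).

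EEF1A2, an elongation factor typical of muscle and neurons, was the called gene of 5 measured elongation factors (20.0% rising, against 8.93% of all genes). It was at 0.37 on 100K, 0.36 on 200K, 0.66 on 400K, 0.83 on 600K and 0.74 on 800K (slope 0.19 ± 0.026, limma adjusted p = 0.00597). EEF1D (slope −0.14, adjusted p = 0.0710) and EIF5A (−0.079, 0.0645) did not pass. Of 7 further genes with TOP mRNAs, 1 rose (14.3%, against 8.93% of all genes) and 0 fell (12.4% of all genes). It was NACA, a subunit of the nascent chain complex at the exit tunnel (slope 0.088 ± 0.016, limma adjusted p = 0.0155). The call of NACA ended without the 600K (0.0564) or 800K array (0.0557), without _x_at probe sets (slope 0.17, 0.0593), without _x_at and _s_at probe sets (0.0768) and in the 3 against 3 fit (0.0688). VIM (slope −0.12, 0.0562) and HNRNPA1 (−0.055, 0.581) did not pass. Of the snoRNA host genes GAS5 (slope 0.022) and ZFAS1 (0.047), 0 of 2 passed.

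On the path from mTORC1 to the ribosome 2 of 13 genes rose (15.4%, against 8.93% of all genes) and 1 fell (7.69%, against 12.4%). PDCD4, an inhibitor of the helicase eIF4A that S6 kinase marks for degradation, was at 0.32 on 100K, 0.83 on 200K, 1.29 on 400K and 2.20 on both 600K and 800K (slope 0.58 ± 0.057, limma adjusted p = 0.00264). TSC1, which restrains mTORC1, had a slope of 0.15 ± 0.039 (limma adjusted p = 0.0475), lost without the 100K (0.107), 200K (0.0707), 600K (0.133) or 800K array (0.175). It was also lost after centring (0.0779), with robust variances (0.0516) and in the 3 against 3 fit (0.166). TSC1 has 1 probe set, so taking medians of probe sets or dropping _x_at and _s_at ones left its slope at 0.15. Only the values of other genes change in those fits, where its limma adjusted p was 0.0529 and 0.0632. RPS6KB1, which encodes S6 kinase, fell with a slope of −0.070 ± 0.014 (limma adjusted p = 0.0187), lost without the 600K (0.0661) or 800K array (0.0782), with the median of its probe sets (0.0667) and without _x_at and _s_at probe sets (0.0541). EIF4EBP1, the cap-complex inhibitor, reached 1.07 at 600K and was at 0.39 at 800K (slope 0.21, adjusted p = 0.125).

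**Figure D5:**
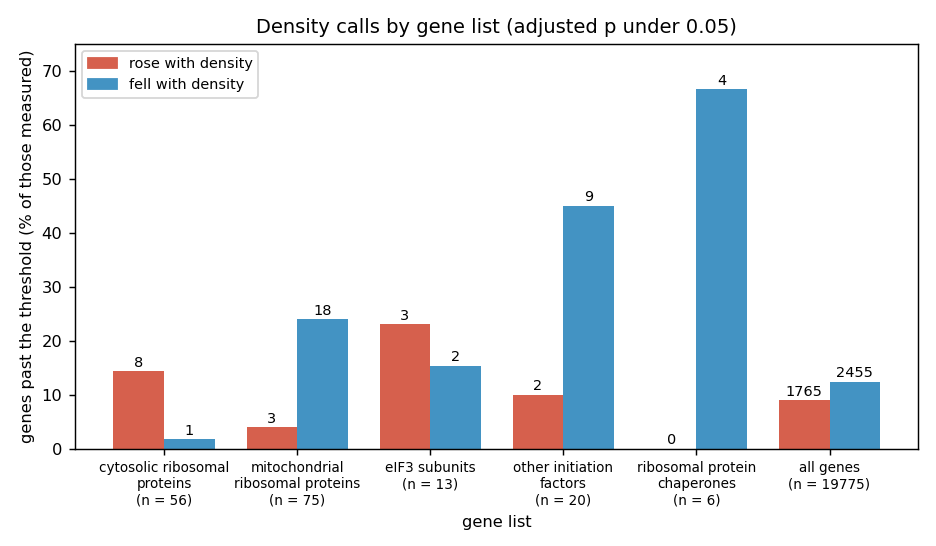
Share of measured genes past the limma threshold (percent, bars from 0) in each list, red for rising and blue for falling, with the number of genes above each bar. Rising calls outnumber falling ones for the cytosolic ribosomal proteins, 8 to 1, and the reverse holds for the mitochondrial ones, 3 to 18, and for the chaperones, 0 to 4.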

How the data were processed

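RNA of 6 MCF10A cultures, 1 per density, was read on 1 array each. Per the submitters' processing notes the authors used RMA, with no version given. The deposited values are linear ratios to the 50K array: all 54675 values of that column are 1 within 1e-06, and the others lie between 0.0292 and 98.5. The division is not described in the sources used here, and no intensity was used, so signal over background and saturation are unknown. The design had assumed log2 levels; log2 of the ratios was used instead, which leaves slopes unchanged.

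After removal of 62 controls, 41091 probe sets with 1 symbol in the platform annotation were averaged per gene, without a filter, into 19775 genes. The identifiers of 41037 were found in RefSeq, and 54 kept the annotation's symbol.

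Slopes on log2 of the cells plated (4 residual degrees of freedom) and quadratic terms (3) were fitted over all genes with limma 3.58.1 in R 4.3.3. Tests were two-sided, p-values were adjusted by Benjamini and Hochberg across the 19775 genes, and 0.05 was the threshold. The procedure was tested on simulated data. The p-values reflect how far the single arrays lie from the fitted curve, with variances that limma moderates over all genes. That scatter mixes array noise, culture differences and departure from the fitted shape. Spread between cultures of the same density was not measured, and whether an array holds 1 dish or several is not given.

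The members and lists were chosen with earlier results of these data known. Named were members past the slope threshold that kept their sign with each array left out, those with the 2 smallest p-values for curvature, the paralog pairs, the 4 genes whose probe sets differ most, the extremes of each role list and up to 3 genes of each other list. RPL14, RPS29, RPS4X, RPS6, RPL22L1, HEATR3, EIF4B, EIF2S3, EIF3E, EIF3G and RPS6KB1 were named after their values were seen. Promoter sequences come from RefSeq, GRCh38.p14.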

Additional observations from a re-analysis of the deposited data

How the results depend on the processing

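The fit as reported called 8 rising and 1 falling ribosomal protein gene and 4220 of all genes. Without probe sets ending in _x_at, 3 fell, and 6 rose among 49 genes left. Without those ending in _x_at or _s_at, 5 rose and 2 fell among 34, with 2664 of all genes called. The median of the probe sets gave 5 rising, centring the arrays gave 2 falling, and the 3 highest against the 3 lowest densities gave 4 rising, 0 falling and 2259 of all genes. Leaving out 1 array gave 3 to 6 rising, 0 to 1 falling and 2388 to 3909 of all genes, the lowest of these without 800K and 2447 without 600K; without 50K 3 rose and 0 fell. RPL22, RPL37 and RPS27L were called with any array left out. Curvature passed for 0 genes under all alternatives run. The median slope of the ribosomal proteins was 0.023 to 0.034 with 1 array left out.

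Slopes that changed sign under an alternative were, among the genes named and the 56 members, ones that did not pass. They were RPL37A (0.044 with the median of probe sets; −0.031 to 0.018 leaving out 1 array, above 0 without 50K), RPL3L (−0.089 to 0.0125, above 0 without 100K), RPS27 (−0.054 to 0.024, above 0 without 50K) and RPLP2 (0.045 without _x_at and _s_at, 0.0012 for 3 against 3, −0.092 to 0.11 leaving out 1, above 0 without 50K). RPL14 was at 0.0057 with the median of probe sets and RPS6 at −0.0154 without _x_at and _s_at. With 1 array left out, RPL7 ran from −0.0092 to 0.0223, RPL18 from −0.0062 to 0.0566, RPS21 from −0.0031 to 0.020 and RPL23A from −0.0027 to 0.024. RPL7 and RPL18 also changed sign without _x_at probe sets (−0.062 and −0.028, and the same without _s_at as well) and by centring (−0.0019 and −0.0002), and RPL7 on cell number (−0.0038) and rank (−0.0006). Outside the members they were HNRNPA1 (0.027 with the median), ZFAS1 (−0.029 without _x_at), GAS5 (−0.0016 to 0.079, below 0 without 800K), RPL22L1 (−0.0078 to 0.0265, below 0 without 600K) and FAU. FAU was at −0.0042 after centring, −0.0073 on cell number, −0.0021 on rank, −0.0053 for 3 against 3 and −0.031 to 0.017 leaving out 1. The cause was not tested for any of these.

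No paired analysis was possible because each density has 1 array. With 1 array per density, the number of arrays limits the precision, and a fault of an end array is not separable from density. TOP tracts were read at listed starts, which can differ from the starts used in these cells.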
